A study of Mus musculus with 6 samples.

Results

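Transcripts of the mitosis and spindle machinery were examined in sorted adult mouse hematopoietic stem cells (HSCs) of 2 genotypes. The genes were a list of 45 that covers the cyclin-dependent kinase engine, mitotic kinases, the spindle checkpoint, kinetochores, spindle motors, cytokinesis and condensin. Each gene was represented by the probe set with the highest mean intensity over the 6 arrays among those annotated to its symbol. That gave 44 of 45 genes, out of 18193 named genes on 45037 probe sets, and cyclin B1 (Ccnb1) was not analysed here because no probe set was paired with its symbol. The list carried 103 probe sets, with 14 genes on a single one and 30 on several.

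The study used 6 single-colour Affymetrix arrays, 3 from adult mice homozygous for a knock-in at the PU.1 gene (labelled PU.1 ki/ki and called knock-in here) and 3 from adult wild types, with no treatment named. PU.1, encoded by Spi1, is an ETS-family regulator needed for myeloid cells and lymphocytes. The series' title links the allele to PU.1 autoregulation and to proliferation of adult HSCs, so the comparison bears on whether division genes differ between the genotypes. The cells of both groups were gated as lin-, sca1+, ckit+, CD150+ and CD48-. The labels do not give the altered site of the knock-in, the sex of the mice, the number of cells, or whether replicates were separate animals or pools, so a p-value here weighs only how these arrays vary, which may be technical. Values below are array intensities in the order of replicates 1, 2 and 3, and differences are on the log2 scale, knock-in minus wild type, with the standard error (SE) of the limma fit.

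Array medians were 41 to 46 on all 6 arrays. Of bright probe sets, 11.55% on wild-type replicate 2 and 11.33% on wild-type replicate 3 read less than their median on the remaining 5 arrays by a factor of at least 4, whereas wild-type replicate 1 had 1.121% of such probe sets and the knock-in arrays 0.1191 to 0.2186%. Of the 44 mitosis genes, 19 counted as bright for wild-type replicate 2 and 17 for wild-type replicate 3. Among these only Smc4 was such a case, on both of those wild-type arrays. Dimmer members were not covered by this count, so it does not show that they kept their signal. Ccnb2, for example, read 10 on wild-type replicate 3 and Nuf2 read 19 on wild-type replicate 2. Spi1 read 170, 212 and 161 in knock-in and 158, 195 and 199 in wild type, so the groups overlapped, and with the altered site not stated this does not check the labels. Of the markers of the gate, Kit and Slamf1 were measured in every sample (374 to 1622 and 42 to 1525) and Ly6a was not analysed here.

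HSCs of the adult marrow are mostly quiescent, and transcripts of mitotic genes are known to be low in resting cells and to accumulate in G2 and M phase. Their promoters are bound by the MuvB core complex, which acts as a repressor in quiescence within DREAM and as an activator later in the cycle together with B-Myb and Foxm1. MuvB contacts the cell cycle homology region (CHR), and the NF-Y factor binds CCAAT boxes at a fixed distance upstream of it. The proteins then act in sequence: cyclin B with Cdk1 starts mitosis, the kinetochore and its checkpoint hold anaphase back, the anaphase-promoting complex releases it, and motors and the contractile ring divide the cell.

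The promoters of these genes were examined for the 2 elements because the members are known as a co-regulated set and the list did not use sequence. RefSeq windows (GRCm38.p6) of 250 bases before to 50 after a gene's listed start were given for 37 of the 45 genes. The CHR core TTTGAA, searched on both strands, was present in 28 of 37 windows (75.7%), against 18.1% of 27025 genes with a window and 13.3% of the 14452 such genes on the array. The box CCAAT, also on both strands, was present in 29 windows (78.4%), against 37.9% of all genes, and both elements in 24 (64.9%), against 7.12%. A TTTGAA within 50 bases of the start was found in 25 windows (67.6%), against 4.92% of all genes. Of the 37 windows, 17 were placed at the 5′ end of the annotated gene. Distances in the others refer to another listed start. The 120 bases before the start are shown for Cdk1, the mitotic kinase, for its partner cyclin B2 (Ccnb2), for the anaphase activators Cdc20 and Ube2c, and for the kinesins Kif11 and Kif4. These genes recur in the results, and only genes with a window placed at the 5′ end of the annotated gene were shown. Espl1, Top2a and Mki67 were left out by that rule. Each is written 5′ to 3′ on the strand of the gene, and capitals mark TTTGAA or its reverse complement TTCAAA, and CCAAT or its reverse complement ATTGG.
Cdk1: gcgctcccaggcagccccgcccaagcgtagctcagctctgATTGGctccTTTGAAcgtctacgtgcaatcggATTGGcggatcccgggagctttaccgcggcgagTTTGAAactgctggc
Ccnb2: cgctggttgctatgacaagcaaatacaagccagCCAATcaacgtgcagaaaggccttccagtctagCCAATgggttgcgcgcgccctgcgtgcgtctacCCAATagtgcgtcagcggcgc
Cdc20: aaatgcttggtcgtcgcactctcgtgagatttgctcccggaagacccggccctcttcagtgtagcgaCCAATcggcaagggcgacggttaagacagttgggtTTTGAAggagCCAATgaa
Ube2c: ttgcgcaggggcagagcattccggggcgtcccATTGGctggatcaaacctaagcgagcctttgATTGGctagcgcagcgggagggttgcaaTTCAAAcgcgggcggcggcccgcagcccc
Kif11: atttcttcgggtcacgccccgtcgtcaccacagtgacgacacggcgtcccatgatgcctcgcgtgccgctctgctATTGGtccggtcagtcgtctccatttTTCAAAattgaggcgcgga
Kif4: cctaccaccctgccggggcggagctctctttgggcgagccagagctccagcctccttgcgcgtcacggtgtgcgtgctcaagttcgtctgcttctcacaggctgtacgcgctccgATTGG
The stretches lie at chr10:69352913-69353032 (minus strand) for Cdk1, chr9:70421555-70421674 (minus) for Ccnb2, chr4:118437344-118437463 (minus) for Cdc20, chr2:164769809-164769928 (plus) for Ube2c, chr19:37376262-37376381 (plus) for Kif11 and chrX:100625945-100626064 (plus) for Kif4. All are upstream of the annotated gene. In Cdk1, Cdc20, Ube2c and Kif11 a box lies upstream of each TTTGAA, and Cdc20 has a further box after it. The Ccnb2 stretch holds 3 boxes and the Kif4 stretch 1, with no TTTGAA in the 120 bases shown. Both windows hold TTTGAA outside that stretch, beginning at -167 and 5 from the start for Ccnb2 and at 20 for Kif4. A match is a stretch of letters and was not tested as a binding site.

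**Figure D1:**
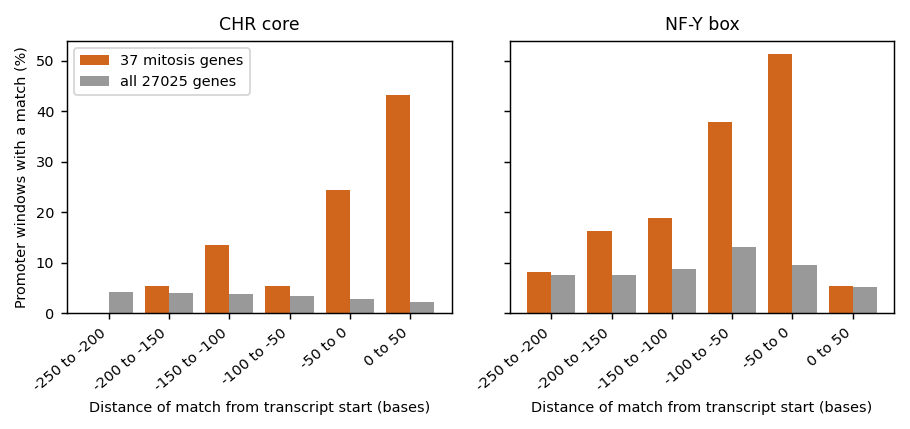
Share of promoter windows (%) with a match to the CHR core (left) or the NF-Y box (right) in steps of 50 bases from the listed transcript start. Values are for 37 mitosis and spindle genes (orange) and all 27025 genes with a window (grey). For the CHR core, 43.2% of the mitosis genes have a match starting in the first 50 bases after the start and 24.3% in the 50 before it, and for the NF-Y box 51.4% have one in the 50 bases before it.

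No mitosis or spindle gene passed the test between genotypes. In the limma fit 0 of 44 had an adjusted p under 0.05, as did 0.0% of all 45037 probe sets, and the lowest adjusted p of the list was 0.508. Before adjustment, 5 genes (11.36%) had p under 0.05, 3 higher and 2 lower in knock-in, against 8.28% of all probe sets (4.6% higher and 3.68% lower). The groups did not overlap for 6 genes (13.64%), against 12.1% of all probe sets. These were 3 higher (Aurka, Nek2 and Kif20b; all probe sets 6.62%) and 3 lower (Ttk, Pttg1 and Kif4; all probe sets 5.46%), shares near the background. The difference was above 0 for 25 genes and below 0 for 19, that is 56.82% above, against 50.6% of all named genes. The median difference was 0.18, against 0.01 for all named genes. Centring each array on its own median took the median of all probe sets from 0.002 to -0.105, and the members' median was then 0.08 with 23 genes above 0.

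**Figure D2:**
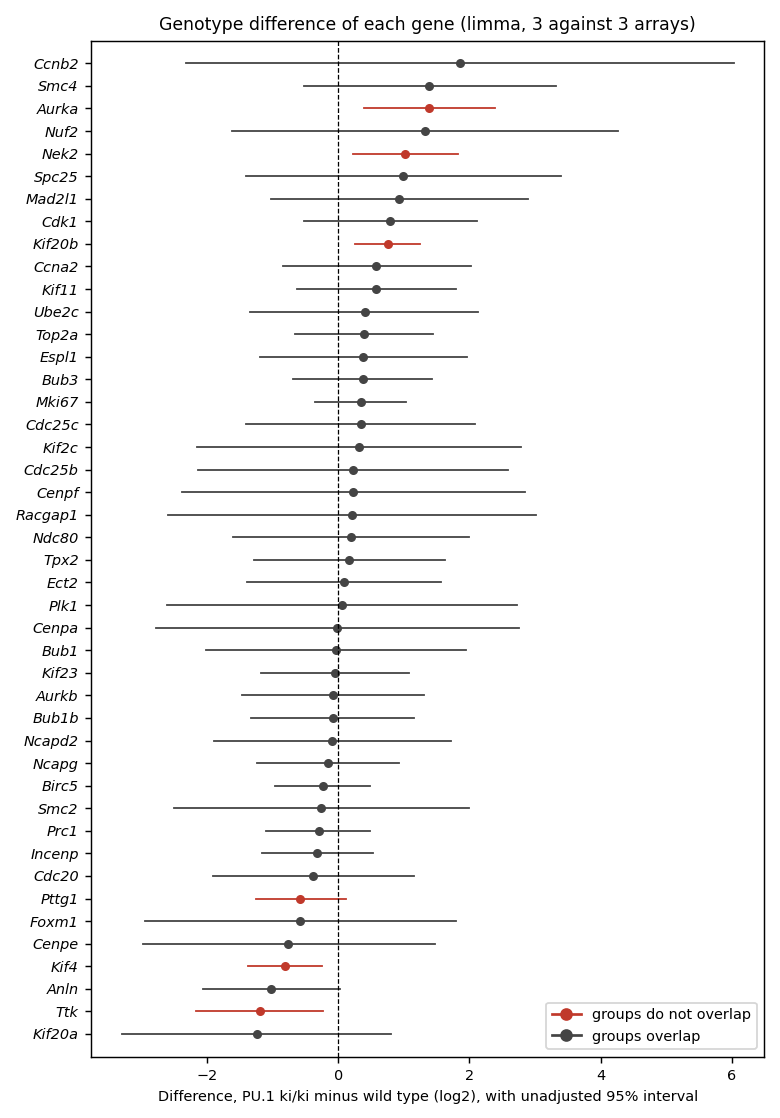
Difference (log2, PU.1 ki/ki minus wild type) of each of the 44 genes with its unadjusted 95% interval from the limma fit over 3 against 3 arrays, sorted by size. Red marks the 6 genes whose groups do not overlap. Estimates run from -1.24 (Kif20a) to 1.86 (Ccnb2), and the widest interval is that of Ccnb2, from -2.32 to 6.03.

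The wild-type arrays differed from each other on these genes, and the median levels of the knock-in arrays lay between theirs. Gene by gene, the wild-type range enclosed every knock-in array for 20 of 44 (45.45%, against 31.23% of all named genes). Wild-type replicate 1 was the highest of the 6 arrays for 23 of 44 genes (52.27%), against 16.82% of all named genes. Wild-type replicate 2 was the lowest for 15 (34.09%, against 22.38%) and wild-type replicate 3 for 13 (29.55%, against 24.47%). Relative to each gene's mean over the 6 arrays, the median of the 44 genes on the log2 scale was 0.75, -0.69 and -0.28 for wild-type replicates 1, 2 and 3, and 0.00, 0.09 and 0.11 on the knock-in arrays. The same medians over all named genes were within 0.01 of 0.

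Wild-type replicate 1 lay above every knock-in array and replicate 2 below every one for 15 genes (34.09%, against 9.152% of named genes). For 9 of these, replicate 3 was below every knock-in array too (20.45%, against 4.282%). The 9 were the cyclins Ccna2 and Ccnb2, the phosphatase Cdc25c, the ubiquitin-conjugating enzyme Ube2c, separase (Espl1), the Ndc80 complex subunits Ndc80 and Spc25, the cytokinesis factor Ect2 and topoisomerase 2-alpha (Top2a). The other 6 were the kinase Plk1, Cdc20, the centromere proteins Cenpa and Cenpe, the midzone kinesin Kif23 and the condensin subunit Ncapd2. The median within-group SD of log2 values was 1.01 in wild type and 0.43 in knock-in, against 0.59 and 0.31 over all named genes, and the wild-type SD was the larger for 39 of 44 genes (88.64%, against 74.45%). The highest wild-type array exceeded the lowest by 10-fold or more for 8 genes (Ccnb2, Foxm1, Plk1, Cenpa, Cenpf, Nuf2, Kif2c and Racgap1), whereas the widest range among the knock-in arrays was 5.894-fold, for Bub1. The share of all named genes with such a range is not given here, so this count is not set against a background. Differences between arrays of these groups were described and not tested, since no label separates the wild-type replicates.

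**Figure D3:**
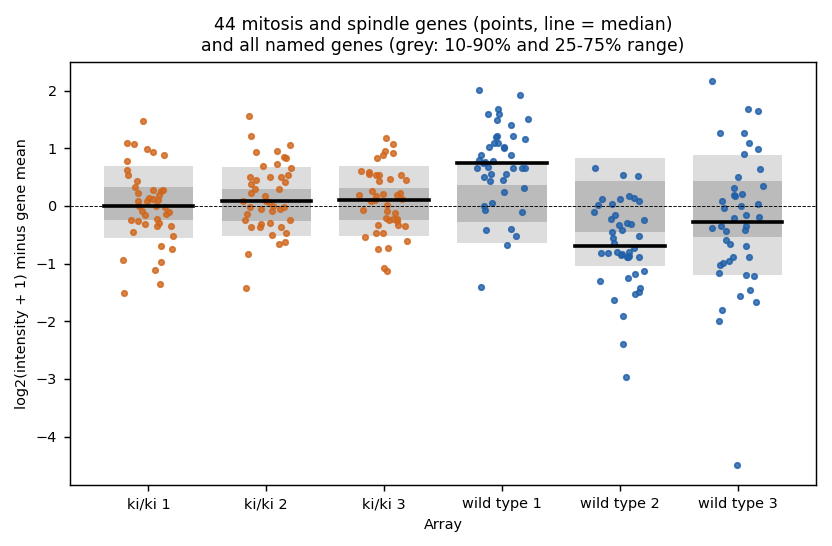
log2(intensity + 1) minus the gene's mean over the 6 arrays, by array, for the 44 mitosis and spindle genes (points, with their median as a line) and for all named genes (dark grey 25 to 75% and light grey 10 to 90% range). For wild-type replicates 1, 2 and 3 the medians are 0.75, -0.69 and -0.28, with all PU.1 ki/ki medians between 0.00 and 0.11.

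The direction of the comparison therefore turned on the wild-type array it was set against. Against wild-type replicate 1, all 3 knock-in arrays were lower for 28 of 44 genes (63.64%, against 28.74% of all named genes) and higher for 6 (13.64%, against 25.28%), with a median difference of -0.76. Against replicate 2 they were higher for 25 (56.82%, against 33.58%) and lower for 6 (13.64%, against 32.45%), with a median of 0.82. Against replicate 3 they were higher for 20 (45.45%, against 35.07%) and lower for 13 (29.55%, against 33.41%), with a median of 0.32. Leaving an array out changed the counts over all probe sets too. Without wild-type replicate 1 in the fit, 32 genes were above 0, with a median of 0.61 and 0 adjusted calls. There 20 genes (45.45%) did not overlap, against 30.28% of all probe sets, and 14 (31.82%) had an unadjusted p under 0.05, against 15.95%. Without wild-type replicate 2, 19 genes were above 0, 13 (29.55%, against 23.08%) did not overlap and the median was -0.21. Without wild-type replicate 3 the median was 0.01 and 10 genes (22.73%, against 21.69%) did not overlap.

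Markers of other cells also differed on wild-type replicate 1. Cd48, the surface protein the gate selects against, read 704 there and 75 to 290 on the other 5 arrays. The neutrophil-lineage markers, 6 of 7 measured, summed to 17808 there, with 12385 and 12513 for the other wild types and 8834 to 12205 for the knock-ins. Of these 6, 3 were highest on wild-type replicate 1, Elane (3640), Mpo (6717) and Prtn3 (1594). The other 3 were not. Camp was the lowest of the wild types there (1492, with 2544 and 1769), and Ltf and S100a8 lay between the other wild types. The higher sum was therefore not shared by all neutrophil-lineage markers. The long-term HSC markers, 6 of 7 measured, summed to 3428 there, with 5418 and 4802 for the other wild types and 4226 to 5669 for the knock-ins. Of these, Procr (332, with 1097 and 1287) and Hlf (1161, with 2678 and 1438) were the lowest of the wild types there. Fgd5 was the highest of them (304, with 67 and 166), and Mecom, Tek and Ctnnal1 lay between the other wild types. The gate markers were split too, with Kit lowest (374, with 1622 and 1001) and Slamf1 highest (440, with 54 and 42). The T and NK cell markers (6 of 6 measured) summed to 426 to 676 in wild type and 252 to 320 in knock-in. Of these only Cd3e was without overlap. The macrophage markers (5 of 5) summed to 145 to 180 in wild type and 327 to 985 in knock-in. C1qb, at the floor of 10 on all wild-type arrays, and C1qc were higher without overlap, while C1qa, Cd68 and Adgre1 overlapped. Erythroid (5 of 7 measured), megakaryocyte (5 of 5), B cell (5 of 6) and endothelial (4 of 4) sums overlapped between the groups, although single markers did not. Among these, Klf1 (118, 123 and 159 in knock-in against 42, 21 and 11) and Vwf (815, 1435 and 1357 against 617, 490 and 298) were higher and Hba-a1 and Cd79a lower without overlap. The part of these markers in the mitotic levels was not tested, and in bulk RNA fewer dividing cells and less transcript per cell cannot be told apart.

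**Figure D4:**
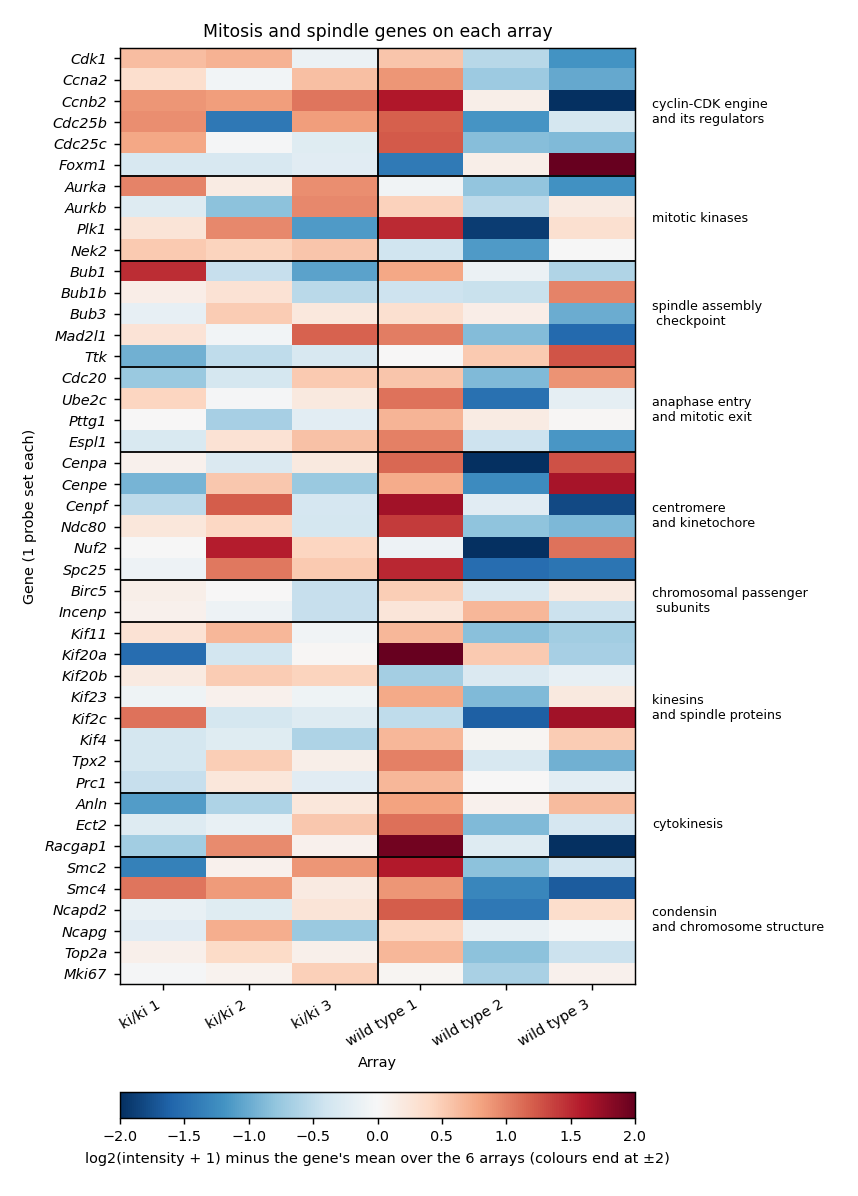
Heat map of log2(intensity + 1) minus the gene's mean for the 44 genes (rows, grouped by role) on the 6 arrays (columns), red above and blue below the mean, with colours ending at ±2. Wild-type replicate 1 is above the mean for 37 genes, wild-type replicate 2 for 10 and wild-type replicate 3 for 17.

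Of the 6 genes of the cyclin-CDK engine and its regulators, 5 had a difference above 0 and 0 passed the test, with a median of 0.46. Cdk1, the kinase that drives entry into mitosis, read 496, 523 and 297 in knock-in and 475, 219 and 141 in wild type. Wild-type replicate 1 fell among the knock-in arrays and the other 2 lay below all of them. The means were 438.7 ± 123.4 and 278.3 ± 174.7 (SD, n = 3 each), a difference of 0.79 (SE 0.52, limma adjusted p = 0.7).

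Cyclin A2 (Ccna2), which binds Cdk2 and Cdk1 in S and G2 phase, read 1276, 975 and 1545 in knock-in and 1866, 611 and 499 in wild type. The wild-type arrays enclosed the knock-in range, for a difference of 0.58 (SE 0.56, limma adjusted p = 0.78). The other Ccna2 probe set had a difference of -0.27. Cyclin B2, whose promoter with 3 CCAAT boxes is shown above, read 455, 442 and 524 against 752, 268 and 10. Its value on wild-type replicate 3 is the floor of the table, so the largest difference of the list, 1.86 (SE 1.63; 95% interval from -2.32 up to 6.03; limma adjusted p = 0.766), rests on an array listed at the floor. Without that array the difference of Ccnb2 was 0.07.

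Foxm1, the forkhead activator of G2 and M genes, read 174, 174 and 185 in knock-in and 81, 237 and 980 in wild type, so replicate 1 was its lowest array and replicate 3 its highest. The difference was -0.58 (SE 0.93, limma adjusted p = 0.868), and without wild-type replicate 3 it was 0.35. Its other measured probe sets had differences of -0.34 and 0.58, beside one at the floor on all arrays. The phosphatases Cdc25b and Cdc25c, which activate Cdk1, had differences of 0.23 and 0.34.

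Of the 4 mitotic kinases, 3 had a difference above 0, with a median of 0.54, and 0 passed the test. Aurora A (Aurka), which matures centrosomes, read 298, 169 and 285 in knock-in and 143, 86 and 64 in wild type. Every knock-in array was above every wild-type array, with replicate 1 the highest of the wild-type arrays here too. The means were 250.7 ± 71.02 and 97.67 ± 40.77 (SD, n = 3 each), and the difference of 1.39 (SE 0.39, interval at 95% 0.39 to 2.39) had a limma unadjusted p of 0.016 and an adjusted p of 0.517. A second Aurka probe set, at 18 to 47 on all arrays, went the other way without overlap, with a difference of -0.8.

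Nek2, a kinase that separates centrosomes, read 198, 187 and 201 in knock-in and 104, 62 and 136 in wild type. The knock-in values were close together and all above wild type, with a difference of 1.02 (SE 0.31; 95% interval from 0.22 up to 1.82; limma unadjusted p = 0.0214, adjusted p = 0.542). Of its 3 other probe sets, 2 had a difference above 0 (0.76 and 0.27) and 1, at 10 to 18 on all arrays, went the other way without overlap, at -0.46.

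Aurora B (Aurkb), the kinase of the chromosomal passenger complex, read 188, 126 and 435 in knock-in and 308, 156 and 255 in wild type. The groups overlapped widely, with a difference of -0.08 (SE 0.54, limma adjusted p = 0.991). Plk1, a kinase of mitotic entry and spindle assembly, read 187, 304 and 71 against 442, 41 and 195. Its highest and lowest values were both wild type, and its difference of 0.06 (SE 1.04, limma adjusted p = 1.0) turned to -0.08 after quantile normalization and -0.05 after centring.

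The spindle assembly checkpoint delays anaphase until kinetochores are attached. Of its 5 genes 2 had a difference above 0, with a median of -0.04. Ttk, the kinase that starts checkpoint signalling, read 92, 127 and 144 in knock-in and 181, 261 and 434 in wild type. All knock-in arrays were below all wild-type arrays, and wild-type replicate 3 was the highest. The means were 121.0 ± 26.51 and 292.0 ± 129.3 (SD, n = 3 each), with a difference of -1.20 (SE 0.38; 95% interval from -2.17 up to -0.23; limma unadjusted p = 0.0248, adjusted p = 0.551). The other Ttk probe set had a difference of 0.07.

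BubR1 (Bub1b), a subunit of the mitotic checkpoint complex, read 451, 504 and 283 in knock-in and 308, 303 and 819 in wild type. Wild-type replicate 3 was far above the other 5 arrays, and the difference was -0.08 (SE 0.49, limma adjusted p = 0.986). Mad2l1, which inhibits Cdc20, had a difference of 0.93, Bub3, a kinetochore adaptor, 0.37, and the kinase Bub1 -0.04, all with overlapping groups.

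At anaphase entry and mitotic exit 2 of 4 genes had a difference above 0 and the median was 0.00. Cdc20, the activator of the anaphase-promoting complex, read 423, 553 and 1026 in knock-in and 1038, 385 and 1329 in wild type. Wild-type replicates 1 and 3 were above every knock-in array and replicate 2 below, for a difference of -0.38 (SE 0.60, limma adjusted p = 0.866). Ube2c, which supplies ubiquitin to that complex, read 1340, 980 and 1144 against 2124, 353 and 879. Replicate 1 was above and the other wild-type arrays below all knock-in arrays, and the difference was 0.40 (SE 0.68, limma adjusted p = 0.883). Separase (Espl1), the protease that cleaves cohesin, had a difference of 0.38.

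Securin (Pttg1), which inhibits separase until anaphase, read 2706, 1704 and 2336 in knock-in and 4307, 3025 and 2749 in wild type. No knock-in array reached the lowest wild-type array, although the highest of them, 2706, was close to it. The difference was -0.58 (SE 0.27; 95% interval from -1.26 up to 0.11; limma unadjusted p = 0.0827, adjusted p = 0.639). Its 2 other probe sets went the other way, and one of them read 598, 895 and 316 against 272, 43 and 98 with no overlap and a difference of 2.39 (limma adjusted p = 0.563). The mean over its 3 probe sets gave a difference of 0.83, so the direction for securin depended on the probe set.

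The 6 centromere and kinetochore genes had the widest wild-type spread of the 9 roles, with a median SD of 1.73 on the log2 scale against 0.69 in knock-in. Of these 4 had a difference above 0, with a median of 0.21 and a range from -0.76 to 1.32. Cenpe, the motor that congresses chromosomes, read 244, 681 and 279 in knock-in and 785, 195 and 1463 in wild type. Wild-type replicates 1 and 3 were above and replicate 2 below every knock-in array, with a difference of -0.76 (SE 0.87, limma adjusted p = 0.811). The Ndc80 complex subunits, which bind microtubules, had differences of 1.32 (Nuf2), 0.99 (Spc25) and 0.19 (Ndc80). Cenpf, a kinetochore protein of G2 and M phase, had one of 0.23 and the centromeric histone Cenpa one of -0.02, and the groups of all these genes overlapped.

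Of the chromosomal passenger subunits, which carry Aurora B to centromeres, both had a difference below 0 with overlapping groups. Survivin (Birc5) read 797, 740 and 533 in knock-in and 1042, 589 and 834 in wild type, with a difference of -0.23 (SE 0.28, limma adjusted p = 0.823). Incenp, the scaffold, was the only gene of the list that was highest on wild-type replicate 2, at 3660 against 1677 to 2730 on the other 5 arrays, and had a difference of -0.32.

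Among the 8 kinesins and spindle proteins 4 had a difference above 0 and 4 below, with a median of 0.06. Kif20b, a kinesin of late cytokinesis, read 866, 1084 and 1041 in knock-in and 476, 622 and 683 in wild type. All knock-in arrays were above all wild-type arrays, and wild-type replicate 1 was the lowest of the 6. The means were 997.0 ± 115.5 and 593.7 ± 106.4 (SD, n = 3 each), with a difference of 0.76 (SE 0.19; 95% interval from 0.26 up to 1.25; limma unadjusted p = 0.0111, adjusted p = 0.508). Its 4 probe sets all had a difference above 0, though the other 3 overlapped between groups and 2 of these read 10 to 12 on 5 arrays.

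Kif4, a chromokinesin of the spindle midzone, read 189, 205 and 158 in knock-in and 385, 249 and 344 in wild type on its single probe set. All knock-in arrays were below all wild-type arrays, with a difference of -0.81 (SE 0.22; 95% interval from -1.37 up to -0.25; limma unadjusted p = 0.0139, adjusted p = 0.508). Kif11, the motor that pushes spindle poles apart, read 792, 1031 and 620 against 1028, 364 and 400. Wild-type replicate 1 fell among the knock-in arrays and the others below, and the 3 Kif11 probe sets had differences of 0.24 to 1.79, the one used being 0.58 (SE 0.47, limma adjusted p = 0.744).

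Kif20a, the kinesin that takes the passenger complex to the midzone, had the largest difference below 0. It read 296, 658 and 862 in knock-in and 3408, 1224 and 536 in wild type, so replicate 1 stood above the other 5 arrays while replicate 3 overlapped knock-in. The difference was -1.24 (SE 0.80; 95% interval from -3.30 up to 0.81; limma adjusted p = 0.699). Prc1, the microtubule bundler of the midzone, read 526, 840 and 617 against 1143, 725 and 620, with a difference of -0.30 (SE 0.31, limma adjusted p = 0.789). Wild-type replicate 1 alone lay outside its knock-in range. Tpx2, an activator of Aurora A on the spindle, had a difference of 0.17, Kif2c, a microtubule depolymerase, 0.32 and Kif23 -0.05.

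**Figure D5:**
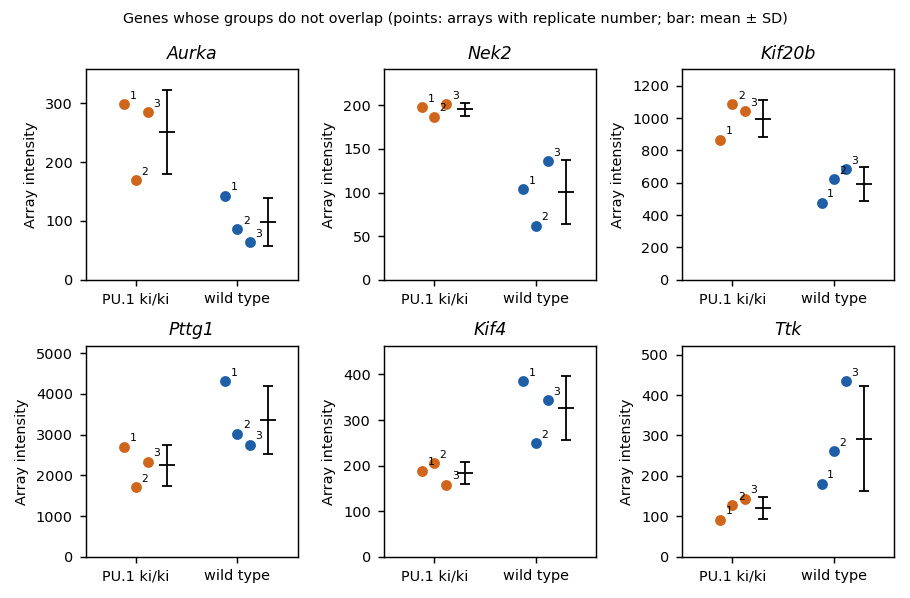
Array intensities of the 6 genes whose groups do not overlap, PU.1 ki/ki in orange and wild type in blue, with the replicate number beside each point and mean ± SD (n = 3) as a bar. Aurka, Nek2 and Kif20b are higher and Ttk, Kif4 and Pttg1 lower in PU.1 ki/ki, and the lowest limma adjusted p among them is 0.508.

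Of the 3 cytokinesis genes 2 had a difference above 0, and all 3 were highest on wild-type replicate 1. Anillin (Anln), a scaffold of the contractile ring, read 75, 106 and 191 in knock-in and 287, 174 and 255 in wild type. Only knock-in replicate 3 exceeded a wild-type array, replicate 2, and the difference was -1.02 (SE 0.41; 95% interval from -2.06 up to 0.03; limma unadjusted p = 0.055, adjusted p = 0.607). The second Anln probe set had a difference of 0.01. Racgap1, which with Kif23 forms centralspindlin, read 92, 289 and 159 against 575, 126 and 37. Its wild-type values spanned 15.54-fold around the knock-in values, with a difference of 0.21 (SE 1.10, limma adjusted p = 0.98), and Ect2 had one of 0.09.

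The condensin and chromosome structure genes gave 3 of 6 with a difference above 0 and a median of 0.13. Smc4, a condensin ATPase, read 4747, 4075 and 2552 in knock-in and 4155, 915 and 713 in wild type. Wild-type replicate 1 lay among the knock-in arrays, and replicates 2 and 3, the arrays with lost bright signals, were below all of them. The difference was 1.39 (SE 0.75; 95% interval from -0.53 up to 3.32; limma adjusted p = 0.662), its other probe sets gave 0.42 and 0.20, and against wild-type replicate 1 alone it was -0.18.

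Top2a, which untangles sister chromatids, read 570, 687 and 571 in knock-in and 836, 299 and 393 in wild type. The wild-type arrays again lay on both sides, with a difference of 0.39 (SE 0.41, limma adjusted p = 0.796). Mki67, the Ki-67 protein that coats mitotic chromosomes and serves as a proliferation marker, read 4203, 4465 and 5912 against 4401, 2728 and 4542. Its groups overlapped, with means of 4860 ± 920.4 and 3890 ± 1009 (SD, n = 3 each) and a difference of 0.34 (SE 0.27; 95% interval from -0.35 up to 1.03; limma adjusted p = 0.742). Smc2, Ncapd2 and Ncapg, further condensin subunits, had differences of -0.26, -0.09 and -0.16.

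Probe sets of one gene often disagreed. Of the 30 genes with several, 12 had differences of a single sign and 18 of both signs. Signs were counted whatever the level or size. For Racgap1, Top2a and Ttk the opposite sign came from a dim probe set (10 to 16, 10 to 21 and 16 to 59), and for Aurkb from a difference of 0.00. Others disagreed on brighter probe sets, such as Pttg1 (43 to 895) and Cdc20 (160 to 660). Of the 6 genes without overlap, Kif20b kept its sign on all its probe sets and Kif4 had only 1, while Aurka, Nek2, Ttk and Pttg1 had probe sets of both signs. When the mean over a gene's probe sets was used, 2 genes did not overlap, Kif4 and Bub1b, both lower in knock-in.

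A further 84 mitotic genes outside the list were measured in the same fit. Of these 0 passed the limma test. The difference was above 0 for 49 and below 0 for 34, with a median of 0.16, a majority that reversed in some alternative runs (last section). Of the 84, 7 (8.333%, against 8.28% of all probe sets) had an unadjusted p under 0.05, all higher. Wild-type replicate 1 was the highest array for 36 of them (42.86%, against 16.82% of named genes). The groups did not overlap for 7 (8.333%, against 12.1% of all probe sets), 4 higher and 3 lower. The 3 lower, named after their values were seen, were the condensin subunit Ncaph (-0.84), the cohesin release factor Wapl (-0.45) and the anaphase-promoting complex subunit Anapc4 (-0.74). Cdca5 (sororin, which protects cohesion) read 924, 493 and 497 in knock-in and 342, 229 and 262 in wild type without overlap, with a difference of 1.15 (SE 0.32, limma adjusted p = 0.514). Kif2a, a microtubule depolymerase, read 4637, 2307 and 2670 against 589, 850 and 1924 without overlap, a difference of 1.63 (SE 0.53, limma adjusted p = 0.56). Shcbp1 and Ska1, of the midbody and the kinetochore, had differences of 0.66 and 1.04.

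Of 14 transcriptional regulators of these genes 6 had a difference above 0 and 8 below, with a median of -0.16, and 0 passed the limma test. That majority also reversed in some alternative runs. Wild-type replicate 1 was the highest array for 3 of 14 (21.43%, against 16.82% of named genes). Lin52, a MuvB subunit, read 34, 25 and 30 in knock-in and 45, 109 and 76 in wild type, lower without overlap, with a difference of -1.26 (SE 0.36, limma unadjusted p = 0.0163, adjusted p = 0.519). Lin37, another MuvB subunit and named after its values were seen, was the other regulator without overlap and went the other way, at 310, 278 and 344 against 253, 235 and 94 with a difference of 0.80 (SE 0.43, limma adjusted p = 0.661). Nfya, the subunit of NF-Y that reads the CCAAT box, read 5889, 3989 and 5340 against 5008, 962 and 2054, with overlap and a difference of 1.22 (SE 0.64, limma adjusted p = 0.66). B-Myb (Mybl2) read 107, 142 and 128 against 174, 118 and 128, a difference of -0.14 (SE 0.21, limma adjusted p = 0.859).

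Members with and without the CHR core were set side by side. The 28 measured genes with TTTGAA in the window had median levels of 0.71, -0.72 and -0.20 on wild-type replicates 1, 2 and 3 relative to the gene mean, on the log2 scale, and -0.09, 0.25 and 0.15 on the knock-in arrays, and 16 were highest on wild-type replicate 1. The 8 without it had medians of 0.71, -1.0 and 0.01, and 0.20, -0.02 and 0.11 on the knock-in arrays, and 3 were highest on wild-type replicate 1. Wild-type replicates 1 and 2 were the highest and lowest in both sets. Replicate 3 lay below all knock-in medians in the set with TTTGAA (-0.20, with the lowest at -0.09). In the other set it lay narrowly among them (0.01, with the lowest at -0.02). The split by CCAAT gave the same order, with replicate 3 at -0.28 in the 28 genes with the box and 0.10 in the 8 without. With 8 genes in each smaller set these orders are given as a description.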

How the data were processed

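RNA of sorted HSCs from 3 PU.1 ki/ki and 3 wild-type samples was hybridised to 1 array each. The authors deposited 1 intensity per probe set and array, and the submitters' processing notes name RMA, with no version. The values are whole numbers on a linear scale with a floor of 10, and how they were brought from RMA's log2 scale is not given in the sources used here. Groups came from the sample titles. A free-text description that speaks of embryos conflicts with the other labels and was set aside.

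Control probe sets were left out, which left 45037, and log2(intensity + 1) was fitted in R 4.3.3 by lmFit and eBayes of limma 3.58.1, with genotype as the only term. P-values were adjusted by Benjamini-Hochberg over all probe sets, with a threshold of 0.05. Called means an adjusted p under that threshold. Differences of dim probe sets may be understated, and a large difference can also rest on a single value at the floor, as for Ccnb2. Bright probe sets are those whose median over the other 5 arrays was at least 512. Symbols came from the platform annotation, which gave 1 symbol for 34945 probe sets, several for 932 and none for 9160. No filter was applied, so all 44 measured members were tested, and 1 (Ccnb2) touched the floor.

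Per-array values are given for members without overlap, the 3 largest differences each way and a panel, and the other members are given by role. Of the further mitotic genes without overlap the 4 with the lowest p are named, and of the regulators the 2 with the lowest p and Mybl2. The members, lists and panel were chosen with earlier results of these data known. With 3 against 3 arrays an exact two-sided permutation test cannot go below 0.1. The steps were tested on simulated data. A minimum of calls was required there only at a low spread, so that test does not tell what could be called at the spread observed. The number of arrays limits the precision. Promoter windows came from RefSeq (GRCm38.p6), 1 listed start per gene. Same-numbered arrays had correlations of deviations of -0.016, 0.021 and -0.017 across probe sets, so the numbers were not treated as pairs. Alternatives were quantile normalization, centring, a pseudocount of 16, leaving out dim probe sets, a trended robust prior, array weights, the replicate block, other choices of probe set, an unmoderated test and leaving out arrays. For the further mitotic genes they were added after seeing the data. Figures used matplotlib 3.10.9.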

Additional observations from a re-analysis of the deposited data

How the results depend on the processing

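No member was called under any alternative run, the unmoderated test included (5 members at its unadjusted p under 0.05), and none of the further mitotic genes was. With the replicate block, 5 members had an unadjusted p under 0.05, 6 did not overlap and the median was 0.18, and no call changed. The 5 members at an unadjusted p under 0.05 became 3 without dim probe sets, 3 with a trended robust prior, 9 against wild-type replicate 1 alone, 1 with the mean of a gene's probe sets, and 2 to 14 with an array left out (2 without PU.1 ki/ki replicate 1, 3 without PU.1 ki/ki replicate 2 and 14 without wild-type replicate 1). Over all probe sets the share moved as well, from 8.284% to 7.554%, 7.028%, 12.38%, 9.086% of genes, and 5.629 to 15.95%. The 6 without overlap became 34 against wild-type replicate 1 alone, 2 with the mean of probe sets, and 6 to 20 with an array left out, where the share of all probe sets went from 12.07% to 51.51%, 14.24% of genes, and 18.24 to 30.28%. With all 6 arrays kept, the members' median of 0.18 became 0.02 with quantile normalization and 0.01 with array weights. It was 0.08 with the mean of probe sets and -0.01, with 21 members above 0, with the probe set of smallest variance. Members above 0 went from 25 to 8 and the median from 0.18 to -0.76 against wild-type replicate 1 alone, where fewer arrays were used. Signs reversed there for Cdk1 (-0.16), Ccna2 (-0.59), Ccnb2 (-0.67), Foxm1 (1.12), Plk1 (-1.47), Bub1b (0.38), Ube2c (-0.89), Kif11 (-0.37), Racgap1 (-1.82), Smc4 (-0.18) and Top2a (-0.46). With the probe set of smallest variance they reversed for Ccna2 (-0.27), Aurka (-0.80), Aurkb (0.00, just above), Nek2 (-0.46), Cdc20 (0.32), Racgap1 (-0.25) and Top2a (-0.01). That choice favours dim probe sets, here at 18 to 47 for Aurka, 10 to 18 for Nek2, 10 to 16 for Racgap1 and 10 to 21 for Top2a. For Foxm1 it took one at 10 on all arrays, not counted as a reversal. Aurka and Nek2 reversed in no other setting. Plk1 reversed with quantile normalization (-0.08), centring (-0.05) and array weights (-0.04), Bub1b with array weights (0.00) and Pttg1 with the mean of probe sets (0.83). With an array left out, the range crossed 0 for Foxm1 (-1.44 to 0.35), Aurkb (-0.58 to 0.31), Plk1 (-0.88 to 0.82), Bub1b (-0.33 to 0.39), Ube2c (-0.25 to 1.04) and Racgap1 (-0.73 to 1.23). Of the 25 members with per-array values, 9 kept their sign in all settings and 16 did not. Of the 84 further mitotic genes, those above 0 went from 49 (median 0.16) to 29 (-0.10) with the probe set of smallest variance. They numbered 37 (-0.06) without wild-type replicate 3, 61 (0.52) without wild-type replicate 1 and 21 (-0.42) against wild-type replicate 1 alone. Of the 14 regulators, 6 above 0 (-0.16) became 9 (0.21) with the mean of probe sets and 8 (0.21) with that of smallest variance. The cause of these changes was not tested. Where 1 wild-type array remained it was assumed to vary like the PU.1 ki/ki arrays.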
